A study of Mus musculus with 10 samples.

Results

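Adipokines are proteins that fat tissue releases into the blood or to its neighbours. Transcripts of 10 adipokines were followed here in epididymal white adipose tissue, the visceral depot beside the epididymis. The members were the rows of the count tables whose gene symbol equalled Adipoq, Lep, Retn, Rbp4, Cfd, Nampt, Apln, Rarres2, Sfrp5 or Nrg4, which gave 10 of 23930 genes. The tissue came from male C57BL/6 mice aged 18 weeks that had eaten a high-sucrose, high-fat diet over 8 weeks. Of these, 5 were Srgn-/- mice, which lack serglycin, a proteoglycan of the secretory granules of blood-derived cells, and 5 were Srgn+/+ mice. All 10 mice shared sex, strain, age and diet, and no mouse on another diet was analysed here. How the Srgn allele was disrupted is not given in the sources used here, and body and fat-pad weights were not analysed here. Libraries are named by genotype and by their order within it, and that number pairs no mice between genotypes.

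Adipocytes secrete adiponectin, leptin and adipsin, and in mice resistin too, and the circulating levels of leptin and adiponectin are known to move in opposite directions with fat mass. Leptin reports fat stores to the brain, adiponectin sensitizes liver and muscle to insulin, and adipsin is complement factor D, the protease that starts the alternative complement pathway. In obesity the depot also gains macrophages, so that the transcripts of bulk fat reflect both its adipocytes and the cells among them.

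Each gene was read at 1 short PCR target (amplicon) by the Ion AmpliSeq mouse transcriptome kit. Libraries held 7824764 to 10757779 reads, and the adipokines took 0.866% to 1.30% of the reads in Srgn-/- libraries and 0.758% to 1.83% in Srgn+/+ libraries. The Srgn amplicon, whose position relative to the deletion the labels do not give, had 3, 1, 0, 0 and 12 reads in Srgn-/- 1 to 5, against 776, 1047, 1301, 851 and 1005 reads in Srgn+/+ 1 to 5. A count of 0 allows up to 0.364 and 0.367 RPM (reads scaled to a common library total) in Srgn-/- 3 and 4 (3 reads of the library, counting error only). Summed RNA of 27 epididymis and testis markers ranged from 9.54 to 5665 RPM in Srgn-/- libraries and from 1.58 to 1014 in Srgn+/+ libraries, and was highest in Srgn-/- 3, Srgn-/- 5 and Srgn+/+ 4. Of these markers 3 (Defb30, Svs2 and Svs4) were at 0 in all libraries. Levels below are CPM, counts scaled like RPM with library sizes corrected by TMM factors, and are compared between libraries but not between genes, since amplicons differ in efficiency.

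No adipokine passed the test between genotypes. By the edgeR quasi-likelihood test with Benjamini-Hochberg adjustment over the 12719 genes tested, 0 of the 10 members had an adjusted p under 0.05, where 0.00786% of all genes tested did, which was Srgn alone. The DESeq2 Wald test and limma-voom with a quality weight for each library also called 0 members. DESeq2 nevertheless called 226 genes, 1.78% of those tested. At an unadjusted p under 0.05 there was 1 member of 10 in edgeR, Rbp4, where 12.8% of all genes passed, with 1 member in DESeq2 and 3 in limma-voom, where 20.3% of all genes passed. In 7 of the 10 edgeR fits that left out 1 library (Srgn-/- 2, 3, 4 or 5, or Srgn+/+ 3, 4 or 5) the number was 0. It was 1 without Srgn+/+ 2, 4 without Srgn-/- 1 and 2 without Srgn+/+ 1, and in the last 2 fits 15.6% and 17.6% of all genes passed. Without the 3 libraries richest in epididymis RNA it was 0, where 4.17% of all genes passed. The 2 genotypes overlapped for all 10 members, while they did not overlap for 2.78% of all genes tested (1.39% higher and 1.38% lower in Srgn-/- fat). All 10 members passed the filter on low counts, 5 had a positive and 5 a negative log2 fold change (Srgn-/- over Srgn+/+), and their median was 0.01, beside -0.001 over all genes tested.

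**Figure D1:**
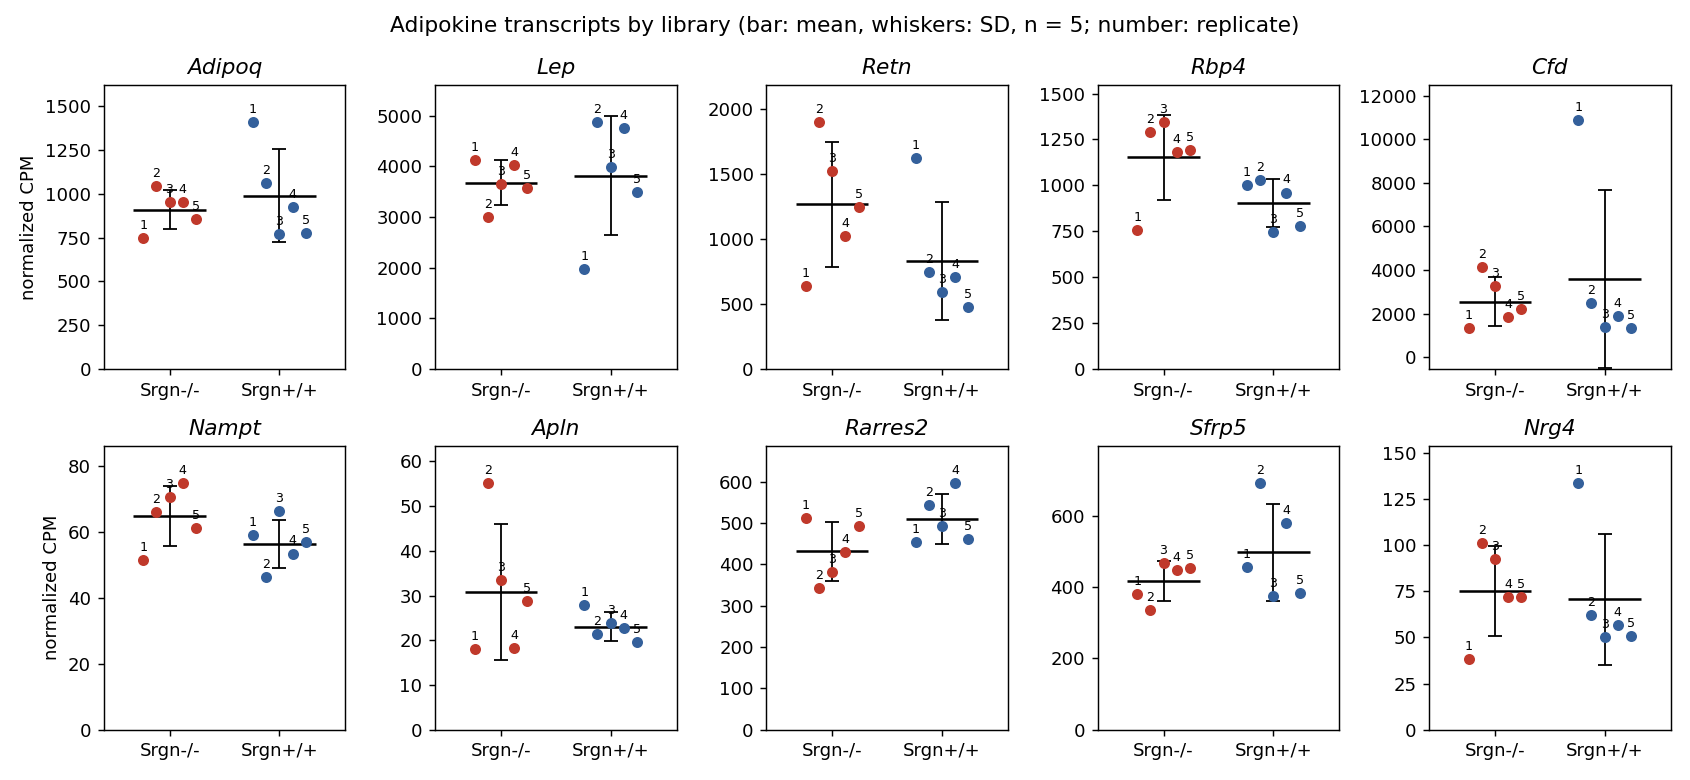
Normalized CPM of the 10 adipokines in each library, with Srgn-/- (red) left of Srgn+/+ (blue); the horizontal bar is the mean, the whiskers are the SD (n = 5) and each number is the replicate. The genotypes overlap in every panel, and Srgn+/+ 1 lies highest for Adipoq, Cfd and Nrg4 and lowest for Lep.

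The promoters of Cfd, Nrg4, Retn and Adipoq and of Lep are shown first so that their sequences can be set side by side. All pairs among the first 4 except Adipoq with Retn were correlated over the libraries (described below). Lep did not move with them. RefSeq sequences of build GRCm38.p6 reach from 250 bases before to 50 bases after a start site and were found by symbol for 9 of the 10 members (10 windows, with a pair for Rbp4); this build differs from mm9, which the submitters' processing notes name, and its coordinates apply to these sequences only. Sequences run 5′ to 3′ on the strand of the gene, and capitals mark a match to TTGCNNAA, a core recognized by C/EBP factors, or to AGGTCA, the hexamer recognized by many nuclear receptors, on either strand.
Cfd (chr10:79890603-79890902, + strand): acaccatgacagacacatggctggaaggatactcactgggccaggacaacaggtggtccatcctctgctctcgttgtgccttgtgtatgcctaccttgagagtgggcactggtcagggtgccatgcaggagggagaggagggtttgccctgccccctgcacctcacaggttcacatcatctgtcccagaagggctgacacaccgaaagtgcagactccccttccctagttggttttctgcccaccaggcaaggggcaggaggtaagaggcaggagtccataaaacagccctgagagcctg
Nrg4 (chr9:55283576-55283875, - strand): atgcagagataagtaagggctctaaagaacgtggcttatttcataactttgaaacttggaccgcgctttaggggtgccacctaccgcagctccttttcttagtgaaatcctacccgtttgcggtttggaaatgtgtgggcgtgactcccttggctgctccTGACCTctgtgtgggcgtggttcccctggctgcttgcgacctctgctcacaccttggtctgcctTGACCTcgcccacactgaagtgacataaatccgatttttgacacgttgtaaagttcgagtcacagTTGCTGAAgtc
Retn (chr8:3655520-3655819, + strand): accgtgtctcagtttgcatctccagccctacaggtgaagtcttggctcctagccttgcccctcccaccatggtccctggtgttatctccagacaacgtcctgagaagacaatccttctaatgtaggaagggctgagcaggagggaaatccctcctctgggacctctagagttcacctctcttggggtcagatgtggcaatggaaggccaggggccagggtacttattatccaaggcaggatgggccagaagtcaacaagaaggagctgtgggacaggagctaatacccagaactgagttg
Adipoq (chr16:23146286-23146585, + strand): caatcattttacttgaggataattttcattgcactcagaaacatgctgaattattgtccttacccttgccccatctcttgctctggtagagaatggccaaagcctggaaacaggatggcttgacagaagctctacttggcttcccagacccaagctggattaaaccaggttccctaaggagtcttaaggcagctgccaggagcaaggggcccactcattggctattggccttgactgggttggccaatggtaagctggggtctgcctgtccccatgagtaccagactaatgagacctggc
Lep (chr6:29059971-29060270, + strand): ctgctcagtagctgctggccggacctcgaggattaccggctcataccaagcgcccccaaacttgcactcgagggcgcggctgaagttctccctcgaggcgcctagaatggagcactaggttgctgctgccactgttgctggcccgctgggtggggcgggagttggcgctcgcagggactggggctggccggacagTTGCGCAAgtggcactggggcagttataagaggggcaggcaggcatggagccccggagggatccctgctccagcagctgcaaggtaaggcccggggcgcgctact
The Lep window held TTGCNNAA on both strands of the same 8 bases, starting at position -55 from the start site; C/EBP alpha is known to act on the proximal promoter of this gene. Nrg4 held AGGTCA on the opposite strand at -90 and -26 and TTGCNNAA at position 40, with no overlap between them. The Cfd, Retn and Adipoq windows held neither. Only exact matches to these strings were sought, so variant sites and sites outside the windows were not examined. Of the 10 member windows, 3 held TTGCNNAA (Lep, Nrg4 and 1 of those of Rbp4) and 2 held AGGTCA (Nrg4 and Nampt). Of all 32851 promoter windows of this length, 10.8% held TTGCNNAA and 16.3% held AGGTCA. A direct repeat of AGGTCA with 1 base between its 2 copies, recognized by PPAR with RXR, was in 0.0396% of all windows and in 0 of the 10 member windows.

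Among the major adipocyte hormones, Adipoq, which encodes adiponectin, had 747, 1046, 950.5, 954 and 854 CPM in Srgn-/- 1 to 5, against 1410.4, 1062, 769.6, 925 and 775 CPM in Srgn+/+ 1 to 5. Most libraries of both genotypes lay within the same span, with Srgn+/+ 1 above the rest. The means were 910.4 ± 114 CPM in Srgn-/- and 988 ± 265 CPM in Srgn+/+ fat (SD, n = 5 each), a log2 fold change of -0.12 with a 95% interval from -0.48 to 0.25 (edgeR adjusted p = 0.797). Without Srgn+/+ 1 it was 0.04.

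Lep, which encodes leptin, had 4124, 3003, 3651, 4026 and 3567 CPM in Srgn-/- 1 to 5, against 1979, 4879, 3986, 4751 and 3497 CPM in Srgn+/+ 1 to 5. The Srgn+/+ libraries held both the lowest and the highest values, and all Srgn-/- libraries lay between them. The means were 3674 ± 444 CPM in Srgn-/- and 3818 ± 1174 CPM in Srgn+/+ fat (SD, n = 5 each; log2 -0.06, 95% interval -0.51 to 0.40; edgeR adjusted p = 0.936). The ratio of Adipoq to Lep CPM, a quotient of 2 amplicon levels that is read only between libraries, was 0.181, 0.348, 0.260, 0.237 and 0.239 in Srgn-/- 1 to 5, against 0.713, 0.218, 0.193, 0.195 and 0.222 in Srgn+/+ 1 to 5. Srgn+/+ 1 had the highest ratio and Srgn-/- 2 the next.

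Cfd, which encodes adipsin, varied more than any other member. It had 1334, 4126, 3268, 1834 and 2215 CPM in Srgn-/- 1 to 5, against 10857, 2508, 1374, 1907 and 1369 CPM in Srgn+/+ 1 to 5. Its highest library had 8.14 times the level of its lowest, and its coefficient of variation over the 10 libraries, 93.4%, stood at the 99.4th percentile of the 10210 genes with a mean of at least 5 CPM. Srgn+/+ 1 stood far above the other 9 libraries, which spanned 1334 to 4126 CPM. The means were 2556 ± 1129 CPM in Srgn-/- and 3603 ± 4082 CPM in Srgn+/+ fat (SD, n = 5 each), and the log2 fold change was -0.50 (95% interval -1.83 to 0.84; edgeR adjusted p = 0.758). This sign rested on Srgn+/+ 1: without it the log2 fold change was 0.51 (edgeR adjusted p = 0.432).

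Retn, which encodes resistin, a small cysteine-rich hormone of mouse adipocytes, had 637, 1903, 1524, 1027 and 1248 CPM in Srgn-/- 1 to 5, against 1626, 748, 592, 709.8 and 479 CPM in Srgn+/+ 1 to 5. In 4 of 5 Srgn-/- libraries the level was above that of Srgn+/+ 2 to 5, while Srgn-/- 1 lay among these and Srgn+/+ 1 was the second highest library of all. The means were 1268 ± 481 CPM in Srgn-/- and 831 ± 457 CPM in Srgn+/+ fat (SD, n = 5 each; log2 0.61, SE 0.361, 95% interval -0.19 to 1.41; edgeR adjusted p = 0.508). Without Srgn+/+ 1 the log2 fold change was 1.003 (edgeR unadjusted p = 0.00563, adjusted p = 0.163), and over all alternatives the adjusted p ranged from 0.127 to 0.999.

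Rbp4, the serum carrier of retinol, had 754, 1289, 1345, 1179 and 1191 CPM in Srgn-/- 1 to 5, against 1002, 1029, 748, 961 and 776 CPM in Srgn+/+ 1 to 5. Every Srgn-/- library but the first lay above every Srgn+/+ library, and Srgn-/- 1 lay next to the lowest Srgn+/+ library. The means were 1152 ± 233 CPM in Srgn-/- and 903 ± 131 CPM in Srgn+/+ fat (SD, n = 5 each; log2 0.35, SE 0.159), with the smallest p of the members (edgeR unadjusted p = 0.0471, adjusted p = 0.385; two-sided exact permutation p = 0.111, where the smallest possible is 0.00794). The unadjusted edgeR p was above 0.05 in 7 of the 10 fits that left out 1 library, all except those without Srgn-/- 1, Srgn+/+ 1 or Srgn+/+ 2, and reached 0.112 without Srgn-/- 3, where the log2 fold change was 0.29. Without Srgn-/- 1 the log2 fold change was 0.47 (edgeR adjusted p = 0.164).

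Nrg4, an EGF-like ligand that fat cells release and that signals to ErbB receptors in liver, had 38.2, 101, 92.3, 71.7 and 72.0 CPM in Srgn-/- 1 to 5, against 134, 62.1, 50.2, 56.5 and 50.6 CPM in Srgn+/+ 1 to 5. Its order over libraries resembled that of Retn and Cfd, with Srgn+/+ 1, Srgn-/- 2 and Srgn-/- 3 highest. The means were 75.05 ± 24.2 CPM in Srgn-/- and 70.6 ± 35.6 CPM in Srgn+/+ fat (SD, n = 5 each; log2 0.09, 95% interval -0.63 to 0.80; edgeR adjusted p = 0.936), and without Srgn+/+ 1 the log2 fold change was 0.45. Without any of Srgn-/- 2, Srgn+/+ 3 and Srgn+/+ 5 it turned slightly negative, to -0.05, -0.02 and -0.02.

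Apln, the peptide ligand of the apelin receptor, is made by endothelial cells as well as adipocytes. It had 17.9, 55.2, 33.5, 18.2 and 28.9 CPM in Srgn-/- 1 to 5, against 27.9, 21.4, 23.8, 22.8 and 19.5 CPM in Srgn+/+ 1 to 5. The Srgn-/- libraries held both extremes, and their highest was 3.08 times their lowest, while the Srgn+/+ libraries spanned 1.43 times. The means were 30.7 ± 15.3 CPM in Srgn-/- and 23.1 ± 3.14 CPM in Srgn+/+ fat (SD, n = 5 each; log2 0.41, 95% interval -0.20 to 1.03; edgeR adjusted p = 0.559). Leaving out single libraries gave log2 fold changes from 0.09, without Srgn-/- 2, to 0.56.

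Nampt, the enzyme that makes nicotinamide mononucleotide and is also released as visfatin, had 51.4, 66.1, 70.6, 74.9 and 61.2 CPM in Srgn-/- 1 to 5, against 59.0, 46.3, 66.3, 53.4 and 56.9 CPM in Srgn+/+ 1 to 5. It was the steadiest member, with a coefficient of variation of 14.8% over the 10 libraries, and the genotypes overlapped widely. The means were 64.8 ± 9.09 CPM in Srgn-/- and 56.4 ± 7.33 CPM in Srgn+/+ fat (SD, n = 5 each; log2 0.20, 95% interval -0.06 to 0.46; edgeR adjusted p = 0.512).

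Rarres2, which encodes the chemoattractant chemerin, had 512, 343, 382, 429 and 493 CPM in Srgn-/- 1 to 5, against 454, 542, 493, 597 and 462 CPM in Srgn+/+ 1 to 5. The 3 lowest libraries were all Srgn-/- and the 2 highest all Srgn+/+, with the others mixed between them. The means were 432 ± 71.7 CPM in Srgn-/- and 509.6 ± 60.1 CPM in Srgn+/+ fat (SD, n = 5 each; log2 -0.24, 95% interval -0.52 to 0.04; edgeR adjusted p = 0.451). Sfrp5, a secreted protein that binds Wnt5a and so restrains Wnt signalling, had 380.2, 334, 468, 447 and 454 CPM in Srgn-/- 1 to 5, against 456, 692, 375, 578 and 383 CPM in Srgn+/+ 1 to 5. Srgn+/+ 2 and 4 were highest, as for Lep, and the other 3 Srgn+/+ libraries lay within the Srgn-/- span. The means were 417 ± 57.1 CPM in Srgn-/- and 497 ± 136 CPM in Srgn+/+ fat (SD, n = 5 each; log2 -0.25, 95% interval -0.63 to 0.12; edgeR adjusted p = 0.561). Without Srgn+/+ 2 the log2 fold change of Sfrp5 was -0.11 (edgeR adjusted p = 0.843).

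**Figure D2:**
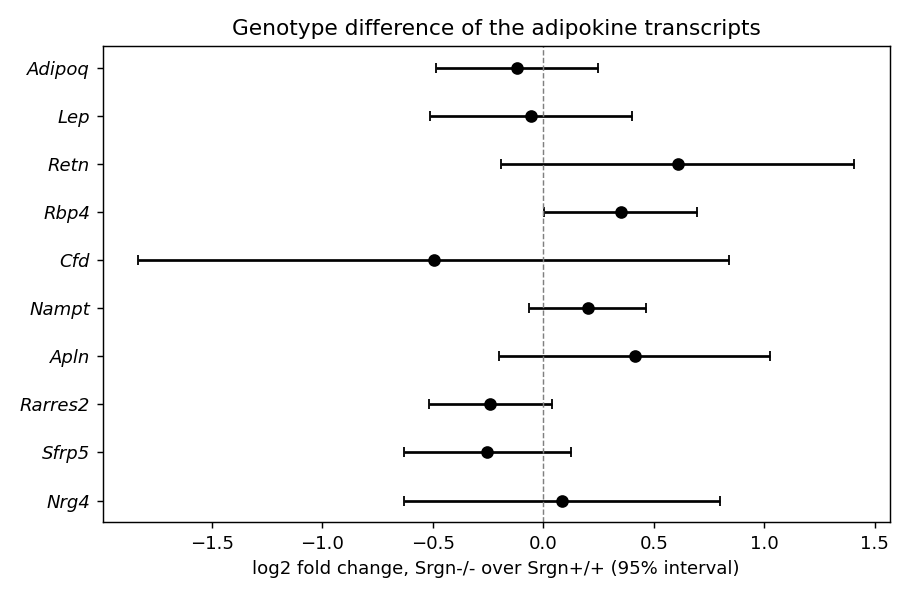
Log2 fold change of each adipokine, Srgn-/- over Srgn+/+, with its 95% interval from the edgeR fit (n = 5 libraries each). The interval of Rbp4 begins at 0.01, those of the other 9 members include 0, and Cfd has the widest, from -1.83 to 0.84.

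Several members varied together across the libraries. Among the 45 pairs of members, 7 had a Pearson correlation of log2 CPM past an adjusted p of 0.05 (two-sided permutation test over 10 libraries, adjusted over the 45 pairs), all of them positive, and 4 passed by Spearman rank correlation. An absolute r of at least 0.782, the lowest of these 7, was reached by 8 of the 45 member pairs (17.8%) and by 3.97% of all pairs among the 10210 genes with a mean of at least 5 CPM. Pairs of 10 genes share members, and the difference between these shares was not tested. The number rested on single libraries, with 4 pairs without Srgn-/- 1, 12 without Srgn+/+ 1 and 11 without Srgn+/+ 5, and it was 14 after the mean of each genotype was removed. Without the 3 libraries richest in epididymis RNA, 3 of the 45 pairs passed by exact permutation over 7 libraries.

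Cfd, Nrg4, Retn and Adipoq were linked by 5 of these 7 pairs. Adipoq with Retn did not pass (r = 0.69, rho = 0.73, adjusted permutation p = 0.0886 and 0.0900). Cfd and Nrg4 had r = 0.93 and rho = 0.93 (permutation p = 6e-05 and 0.00051, adjusted p = 0.0027 and 0.0115), and r was 0.87 without the 2 libraries farthest from the median of Cfd and 0.91 without Srgn+/+ 1. For Cfd with Adipoq r was 0.93 and rho 0.85 (permutation p = 0.00023 and 0.00272, adjusted p = 0.00517 and 0.0306), with r = 0.80 without the 2 libraries farthest from the median of Adipoq. Both pairs passed in all 14 alternatives.

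Retn and Nrg4 had r = 0.90 and rho = 0.94 (permutation p = 0.00043 and 0.00022, adjusted p = 0.00645 and 0.0099), with r = 0.86 without the 2 libraries farthest from the median of Retn. Retn and Cfd had r = 0.80 and rho = 0.89 (permutation p = 0.00228 and 0.0013, adjusted p = 0.0205 and 0.0195; r = 0.82 without the same 2 libraries), and r became 0.95 once genotype means were removed. Adipoq and Nrg4 had r = 0.86 and rho = 0.81 (permutation p = 0.00126 and 0.00725, adjusted p = 0.0142 and 0.0544), which became r = 0.76 with an adjusted exact permutation p = 0.0628 without Srgn+/+ 1. Retn with Nrg4 missed the threshold in 1 of 14 alternatives, without the 3 libraries richest in epididymis RNA, and Retn with Cfd in 3.

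The other 2 pairs also involved Retn. With Rbp4 it had r = 0.85 and rho = 0.82 (permutation p = 0.0036 and 0.00597, adjusted p = 0.0237 and 0.0537; r = 0.94 without Srgn+/+ 1 and Srgn-/- 2). With Apln it had r = 0.78 and rho = 0.71 (permutation p = 0.00369 and 0.0269, adjusted p = 0.0237 and 0.0996; r = 0.69 without the same 2 libraries), and without Srgn-/- 2 the adjusted exact permutation p was 0.153. Retn with Rbp4 passed in 7 and Retn with Apln in 8 of the 14 alternatives. Without Srgn+/+ 1, Rbp4 had r = 0.92 with Retn, 0.88 with Cfd and 0.94 with Nrg4. The adjusted exact permutation p were 0.00825, 0.0183 and 0.00322. Over all 10 libraries Rbp4 did not pass with Cfd or Nrg4 (r = 0.51 and 0.72). Without Srgn+/+ 1, Adipoq passed with Cfd but not with Nrg4 or Retn (adjusted exact permutation p = 0.0265, 0.0628 and 0.141).

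**Figure D3:**
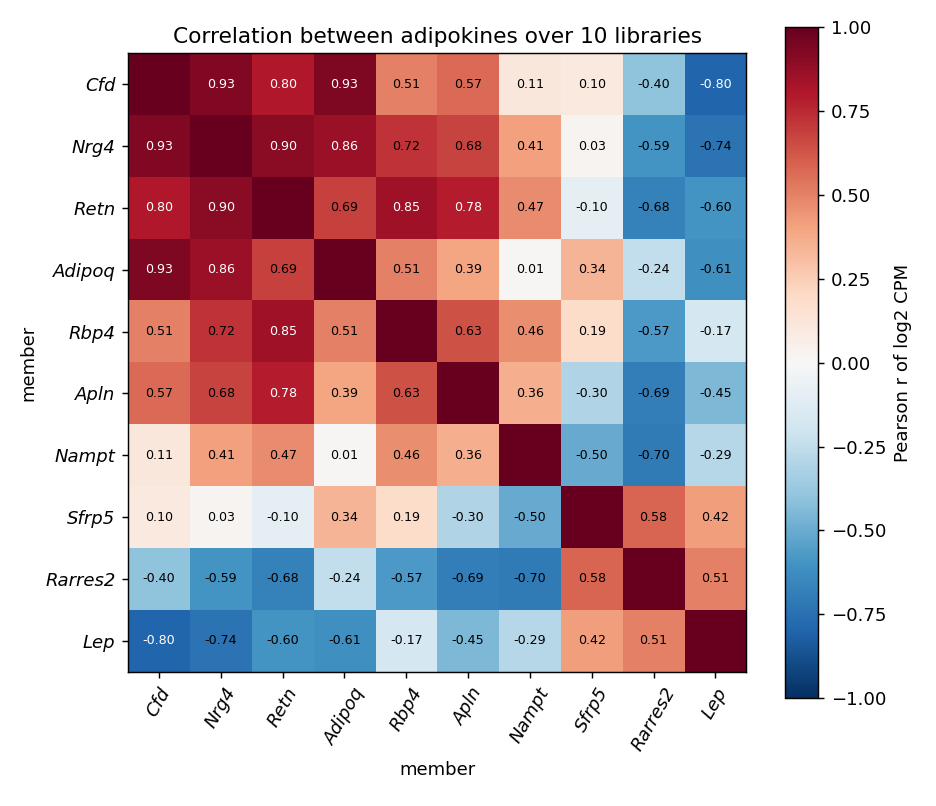
Pearson r of log2 CPM between each pair of adipokines over the 10 libraries, with the value printed in each cell; red is positive and blue negative. Cfd, Nrg4, Retn and Adipoq form a positive block with r from 0.69 to 0.93, and Lep and Rarres2 have negative r with these 4.

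Lep had negative coefficients with Cfd, Nrg4, Retn and Adipoq, but none passed. For Lep with Cfd r was -0.80 and rho -0.43 (permutation p = 0.016 and 0.217, adjusted p = 0.0802 and 0.361), and without Srgn+/+ 1, which had the highest Cfd and the lowest Lep, r was -0.37. For Lep with Adipoq r was -0.61 and rho -0.21 (permutation p = 0.0725 and 0.561, adjusted p = 0.170 and 0.616), and r was 0.05 without Srgn+/+ 1. The negative relation of leptin and adiponectin transcripts rested on that library. Lep with Rarres2 had r = 0.51 and rho = 0.70 (permutation p = 0.137 and 0.0300, adjusted p = 0.240 and 0.0996), and without Srgn+/+ 1 r was 0.83 (adjusted exact permutation p = 0.0265).

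The order of libraries shared by Cfd, Nrg4 and Retn ran opposite to the level of macrophage transcripts. In bulk tissue fewer cells of a type and less RNA per cell cannot be told apart. The mean z-score of 19 macrophage markers was 0.515, -1.12, -0.919, 0.354 and -0.471 in Srgn-/- 1 to 5, against -1.29, 0.203, 0.764, 0.449 and 1.51 in Srgn+/+ 1 to 5, so that Srgn+/+ 1 and Srgn-/- 2 were lowest. The summed level of the 20 markers found was 2799.7 to 5457 RPM in Srgn-/- and 2487 to 9121 in Srgn+/+ libraries, and none of the 20 was at 0 in all libraries. All 19 tested markers had a negative log2 fold change (median -0.51), 0 passed in edgeR, and the genotypes overlapped for each of them. Markers of the same cell type are not separate observations. The part of cell make-up in the levels of the adipokines was not tested.

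Retn was the member closest to that gradient, with r = -0.96 and rho = -0.98 against the macrophage mean (permutation p = 3e-05 each, adjusted p = 0.0009 and 0.0018 over 60 relations of the 10 members with 6 marker lists). Without the 2 libraries farthest from the median, Srgn+/+ 1 and Srgn-/- 2, r was -0.94, and over the fits that left out 1 library it ranged from -0.98 to -0.95. Nrg4 had r = -0.87 and rho = -0.94 (permutation p = 0.00124 and 0.00019, adjusted p = 0.014 and 0.0048; r = -0.75 without those 2 libraries). Cfd had r = -0.86 and rho = -0.94 (permutation p = 0.00032 each, adjusted p = 0.0048 each; r = -0.85 without those 2). Lep had r = 0.61 with the same mean (rho = 0.44, permutation p = 0.0522 and 0.205, adjusted p = 0.120 and 0.373), and r = 0.07 without the same 2 libraries.

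**Figure D4:**
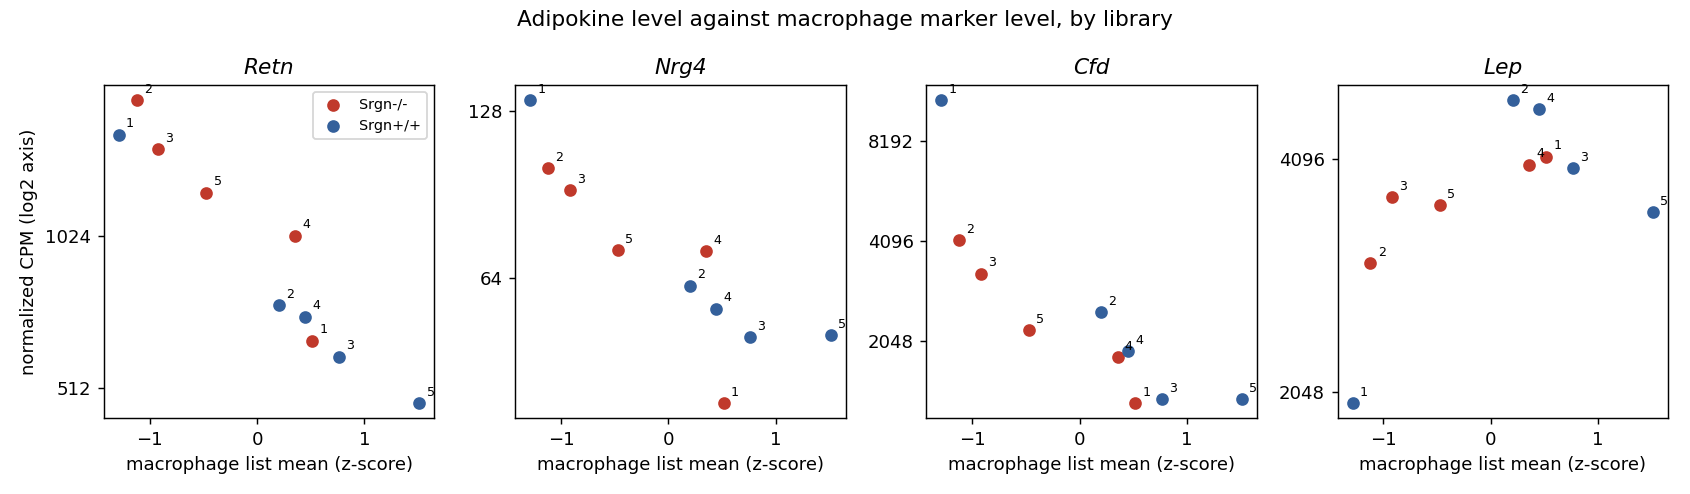
Normalized CPM of Retn, Nrg4, Cfd and Lep (log2 axis) against the mean z-score of the macrophage markers, 1 point per library, Srgn-/- in red and Srgn+/+ in blue, numbered by replicate. Retn, Nrg4 and Cfd are lower where the macrophage mean is higher (r = -0.96, -0.87 and -0.86), whereas the low Lep value of Srgn+/+ 1 stands apart.

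Of the 60 relations, 18 passed by Pearson and 6 by Spearman correlation. An absolute r of at least 0.731, the lowest of these 18, was reached by 19 of the 60 (31.7%) and by 11.1% of the relations of all genes with a mean of at least 5 CPM with the same lists, a list's own markers left out. With the macrophage mean alone it was reached by 6 of 10 members and by 22.6% of all genes. An absolute r as high as that of Retn with the macrophage mean was reached by 1.18% of all genes, and one as high as those of Nrg4 and Cfd by 7.45% and 8.46%. The 18 became 7 without Srgn-/- 1, 8 without each of Srgn-/- 2, Srgn-/- 3 and Srgn+/+ 3, and 11 without each of Srgn-/- 4, Srgn+/+ 4 and Srgn+/+ 5, and 5 without the 3 libraries richest in epididymis RNA. The 5 relations that passed in all 14 alternatives were those of Retn and Cfd with macrophage markers, of Retn with endothelial markers and of Cfd and Nrg4 with mesothelial markers. With the mesothelial mean an absolute r of at least 0.731 was reached by 5 of 10 members and by 19.5% of all genes. With the endothelial mean it was 4 of 10 and 14.7%. Values as high as those of Cfd and Nrg4 with the mesothelial mean were reached by 1.41% and 1.18% of all genes. For Retn with the endothelial mean this share was 1.01%. Mesothelial genes mark the cell layer that covers visceral fat. Their mean had r = 0.91 and rho = 0.94 with Cfd (permutation p = 1e-05, the smallest that 100000 permutations can give, and 0.00027; adjusted p = 0.0006 and 0.0048; r = 0.93 without Srgn+/+ 1 and Srgn-/- 2). With Nrg4 it had r = 0.92 and rho = 0.82 (permutation p = 0.00029 and 0.00602, adjusted p = 0.0048 and 0.0516), with r = 0.82 without the same 2. The mesothelial mean was highest in Srgn+/+ 1 and Srgn-/- 2 (1.26 and 1.06), where the macrophage mean was lowest. The relations with these lists are therefore not separate observations.

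Endothelial markers had r = 0.89 and rho = 0.83 with Retn (permutation p = 0.00184 and 0.00477, adjusted p = 0.0158 and 0.0477; r = 0.91 without Srgn+/+ 4 and Srgn+/+ 5). The adipocyte mean had r = 0.83 with Nrg4, 0.81 with Rbp4, 0.76 with Retn and 0.74 with Adipoq (adjusted permutation p = 0.0224, 0.0349, 0.0475 and 0.0475), and r = -0.36 with Lep (adjusted permutation p = 0.460). By rank these adipocyte relations had rho of 0.75, 0.60, 0.68 and 0.70, with adjusted permutation p of 0.071, 0.187, 0.104 and 0.097, and without the 2 libraries farthest from the median of the adipocyte mean r was 0.69, 0.65, 0.66 and 0.59. The epididymis and testis mean rested on the 4 markers that passed the filter on low counts, Adam7, Prm1, Prm2 and Tnp1. None of the 10 members passed with it, and r ranged from -0.22 for Lep to 0.42 for Retn. This mean was highest in Srgn+/+ 4 (1.41), while the summed RNA of the 27 markers was highest in Srgn-/- 3. The relation of the members to that sum was not tested.

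**Figure D5:**
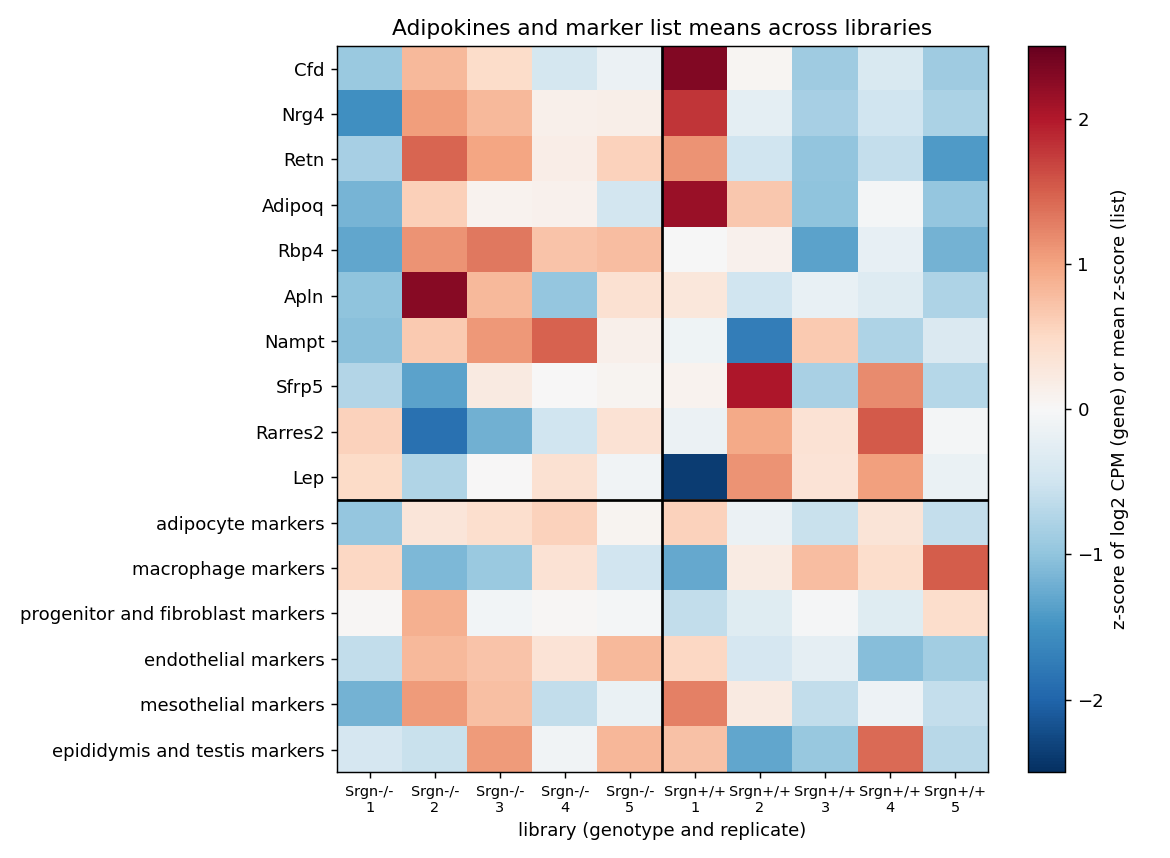
Each adipokine (z-score of log2 CPM) above the line and each marker list (mean z-score) below it, in the 10 libraries, Srgn-/- left of Srgn+/+. Cfd, Nrg4, Retn and Adipoq are high in Srgn+/+ 1 and Srgn-/- 2, where the macrophage mean is lowest, at -1.29 and -1.12.

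For each member, the 3 genes whose log2 CPM followed it most closely over the 10 libraries, after the genotype means were removed, were sought among 10210 genes with a mean of at least 5 CPM. Retn was followed by Gde1, a glycerophosphodiester phosphodiesterase (r = 0.99), by Adrb3, the beta-3 adrenergic receptor of adipocytes (r = 0.98), and by the glutathione transferase Gsta3 (r = 0.98). Nrg4 was followed by Car5b, a mitochondrial carbonic anhydrase (r = 0.99), again by Adrb3 (r = 0.99), and by Acsm5 (r = 0.98). Pnisr, the lipid-droplet carboxylesterase Ces1d and the matricellular Smoc1 came nearest to Cfd (r = 0.99 each). Adipoq had Lrba, the caveolar coat protein Cav1 and the spectrin Sptbn1 beside it (r = 0.98 each). With so many genes and few libraries, high values also arise without any link, and 8.17% of these genes had an absolute r of at least 0.9 with Retn, 8.16% with Cfd, 6.18% with Nrg4 and 2.76% with Adipoq.

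The remaining members had fewer companions. Lep was followed by Tmem132a, Slc38a10 and Unc119 (r = 0.96, 0.96 and 0.95), which became 0.85, 0.82 and 0.78 without Srgn+/+ 1. Nearest to Rbp4 were Farp1 (r = 0.96), Alox15, a lipoxygenase (r = 0.94), and the thrombin receptor F2rl3 (r = 0.93). Nampt was followed by Vwa3a, Arhgap27 and Net1 (r = 0.96 each), and Apln by 5031425E22Rik, Ccdc157 and the anchoring protein Akap9 (r = 0.95, 0.94 and 0.93). Rarres2 lay closest to the proteasome subunit Psmd3, the aminopeptidase Metap2 and the ubiquitin-conjugating enzyme Ube2g1 (r = 0.96, 0.95 and 0.95), and Sfrp5 to 6530402F18Rik, the transcription factor Zbtb7b and Txnrd3 (r = 0.92, 0.91 and 0.90). Between 0.0882% and 1.17% of the genes had an absolute r of at least 0.9 with any of these 6 members.

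Receptors and binding partners of the adipokines were examined in the same fit, and 0 of 17 tested genes passed in either direction, with 7 positive and 10 negative log2 fold changes (median -0.03). Cdh13, which encodes T-cadherin, a binding partner of adiponectin, had 73.2 ± 13.9 CPM in Srgn-/- and 54.2 ± 7.74 CPM in Srgn+/+ fat (SD, n = 5 each; log2 0.43, edgeR adjusted p = 0.275), and Srgn-/- 1, at 49.3 CPM, was its only Srgn-/- library within the Srgn+/+ span. Erbb3, of the receptor family of Nrg4, had 2.71 ± 1.69 CPM in Srgn-/- and 1.12 ± 0.575 CPM in Srgn+/+ fat (log2 1.29, edgeR adjusted p = 0.370). Its counts were low, at 0.191 to 1.62 CPM in Srgn+/+ libraries. It was highest in Srgn-/- 3 (4.88 CPM), which held the most epididymis RNA. Next came Srgn-/- 2 (3.41 CPM), with 9.54 RPM of epididymis RNA, and Srgn-/- 5 (3.28 CPM), with 1323 RPM. Srgn+/+ 4, with 1014 RPM, had 1.37 CPM of Erbb3. The relation of Erbb3 to epididymis RNA was not tested. Tlr4, to which resistin can bind, had 39.7 ± 3.19 CPM in Srgn-/- and 46.7 ± 8.47 CPM in Srgn+/+ fat (log2 -0.23, edgeR adjusted p = 0.449). The apelin receptor Aplnr had 30.9 ± 6.41 CPM in Srgn-/- and 26.5 ± 2.99 CPM in Srgn+/+ fat (log2 0.22, edgeR adjusted p = 0.540).

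Regulators of adipokine genes and factors that help to fold or to work with the proteins also had 0 of 16 tested genes past the threshold (10 positive, 6 negative, median 0.06). Erp44, which retains adiponectin in the endoplasmic reticulum, had 10.995 ± 1.27 CPM in Srgn-/- and 8.95 ± 0.887 CPM in Srgn+/+ fat (SD, n = 5 each; log2 0.30, edgeR adjusted p = 0.392). Zfp423, a regulator of preadipocyte commitment, had 136 ± 12.4 CPM in Srgn-/- and 155 ± 18.3 CPM in Srgn+/+ fat (log2 -0.19, edgeR adjusted p = 0.451). Gstk1, also called DsbA-L, which promotes the assembly of adiponectin multimers, had 36.6 ± 5.79 CPM in Srgn-/- and 30.5 ± 4.89 CPM in Srgn+/+ fat (log2 0.26, edgeR adjusted p = 0.451). Nmnat3, which uses the product of Nampt to make NAD, had 11.3 ± 2.11 CPM in Srgn-/- and 8.61 ± 2.57 CPM in Srgn+/+ fat (log2 0.38, edgeR adjusted p = 0.491).

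Of the resistin family, 3 genes were tested and 0 passed. Retnla, a relative of Retn secreted by alternatively activated macrophages and adipose tissue, had 1154, 1656, 1302, 1892 and 1768 CPM in Srgn-/- 1 to 5, against 1183, 987, 912, 1207 and 639 CPM in Srgn+/+ 1 to 5. Only Srgn-/- 1 lay within the Srgn+/+ span, and the log2 fold change was 0.66 (SE 0.187; edgeR adjusted p = 0.225). Srgn+/+ 1, where Retn was high, was not set apart for Retnla. Retnlg had 2.01 ± 0.683 CPM in Srgn-/- and 1.90 ± 0.807 CPM in Srgn+/+ fat (SD, n = 5 each; log2 0.07, edgeR adjusted p = 0.957). How specific each amplicon is among these relatives was not tested.

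Among 41 other secreted adipose factors that were tested, 0 passed, with 18 positive and 23 negative log2 fold changes (median -0.03). Lcn2, which encodes lipocalin-2, had 579 CPM in Srgn-/- 3, which also held the most epididymis RNA. It had 51.7 to 82.2 CPM in the other Srgn-/- libraries, against 25.1 to 87.1 CPM in Srgn+/+ libraries (log2 1.90, edgeR adjusted p = 0.353). Srgn-/- 5 and Srgn+/+ 4, with 1323 and 1014 RPM of epididymis RNA, had 51.7 and 87.1 CPM of Lcn2. The relation of Lcn2 to epididymis RNA was not tested. Apoe, the apolipoprotein of macrophages and adipocytes, had 375 ± 25.1 CPM in Srgn-/- and 489 ± 143 CPM in Srgn+/+ fat (SD, n = 5 each; log2 -0.38, edgeR adjusted p = 0.364). The peptidase Dpp4 had 41.4 ± 11.4 CPM in Srgn-/- and 32.4 ± 1.46 CPM in Srgn+/+ fat (log2 0.35, edgeR adjusted p = 0.377), and Nucb2, the precursor of nesfatin, had 38.7 ± 7.89 CPM in Srgn-/- and 31.3 ± 4.15 CPM in Srgn+/+ fat (log2 0.31, edgeR adjusted p = 0.392).

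Markers of fat cells were abundant, as the tissue label says: all 18 adipocyte markers were tested and summed to 53988 to 77416 RPM in Srgn-/- libraries and 54825 to 80332 in Srgn+/+ libraries (median log2 fold change 0.04). No marker gene of any list passed in edgeR. The median log2 fold change was 0.08 for 14 progenitor and fibroblast, 0.24 for 14 endothelial and -0.04 for 11 mesothelial markers. It was -1.06 for 14 T and B lymphocyte markers. These summed to 40.3 to 56.2 RPM in Srgn-/- libraries and 62.4 to 194 RPM in Srgn+/+ libraries, without overlap. Singly, the genotypes did not overlap for 3 of the 14 (Cd2, Cd79b and Pou2af1), beside 2.78% of all genes tested. Jchain, which had the highest mean of the 14 in Srgn+/+ fat (47.7 CPM) and so weighs most in the sum, overlapped. The part of the lymphocyte markers in the adipokine levels was not tested. The median was -0.20 for 8 mast cell, -0.19 for 4 neutrophil and 0.13 for 7 liver markers. The neutrophil marker Mpo, which was not tested, was at 0 in all libraries. Only 4 of the 27 epididymis and testis markers passed the filter on low counts, and they differed in sign: the epididymal gene Adam7 had a log2 fold change of 3.28, and the sperm genes Prm1, Prm2 and Tnp1 had -1.25, -0.98 and -1.53 (edgeR adjusted p from 0.520 to 0.803).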

How the data were processed

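Total RNA of 10 tissue samples (5 Srgn-/-, 5 Srgn+/+) was amplified with the Ion AmpliSeq mouse transcriptome kit and read on an Ion S5 XL sequencer, per the labels' protocols. The authors deposited raw counts, whole reads per amplicon for 23930 genes, and RPM values; the deposited RPM equal the counts scaled by library total (largest difference 0.000591). The build is mm9, per the submitters' processing notes; no source used here names the aligner or the counter. Reads were PCR copies with no molecular identifiers, and floors therefore cover only counting error. The libraries came from separate mice, so p-values between genotypes rest on the spread among libraries. Differences of mouse, dissection and library preparation cannot be told apart in that spread.

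Counts were analysed in R 4.3.3 with edgeR 4.0.16: filterByExpr (minimum count 10, minimum total 15) kept 12719 genes and removed 11211. The test was the quasi-likelihood test with TMM factors and robust dispersion, two-sided, with no covariate. In simulated counts it recovered 83% of 100 genes with an absolute log2 change of 1 and 95% of 100 with 2. It made 10 false calls in that simulation of 12719 genes. The SE is the log2 fold change over the square root of F. Retn, Nrg4 and Cfd had SEs of 0.361, 0.323 and 0.603, against a median of 0.165 over all genes tested. The recovered shares therefore need not hold for them. Alternatives used DESeq2 1.42.0 and limma 3.58.1 (voom with library quality weights, and trend on log2 of RPM plus 0.5, 1 or 5). Others changed factors or filters, used exact permutation, or left out libraries. Voom without quality weights was not run.

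Correlations used log2 CPM (prior count 2) and 100000 permutations, or all permutations for 7 or 9 libraries. List means are means of gene z-scores. Members, 4 companion lists and 10 marker lists were chosen with earlier results of these data known. Named genes are the members, Srgn, up to 4 genes of smallest p per companion list and the 3 genes most like each member; genes under the filter, such as C1qa and Gpr1, were not tested. RefSeq promoters were matched by symbol.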

Additional observations from a re-analysis of the deposited data

Results flagged for a closer look

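In 25 genes of the text, each genotype was searched for a single library set apart from the other 4. The gap had to exceed 0.71 of the group's range, and 7 of 50 groups were flagged. For normally distributed values chance flags about 1 in 20 groups. The CPM were not transformed, and many of these genes were named for a small p in these data, so the rates cannot be compared. Srgn+/+ 1 was highest by this measure for Cfd (10857 CPM, against 1369 to 2508 in the other Srgn+/+ libraries), Nrg4 (134 CPM, against 50.2 to 62.1) and Retn (1626 CPM, against 479 to 748). The 3 adipokines vary together, so these are not separate observations, and the same library had the lowest Lep and the lowest macrophage mean.

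Srgn-/- 1 was lowest for Rbp4 (754 CPM, against 1179 to 1345 in the other Srgn-/- libraries) and for Cdh13 (49.3 CPM, against 74.5 to 84.1). Srgn-/- 3 was highest for Lcn2 (579 CPM, against 51.7 to 82.2), and Srgn-/- 5 for Srgn itself (1.31 CPM, against 0 to 0.294).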

How the results depend on the processing

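The count of adipokines past the threshold was 0 in all 22 alternatives. The count over all genes was 226 with DESeq2 and 10 with quality-weighted limma-voom. It was 3 without filtering low counts, and 1 to 2 when single libraries were left out. Retn, Rbp4, Nampt, Apln, Rarres2 and Sfrp5 kept the sign of their log2 fold change in all 23 alternatives. Cfd turned positive with quality-weighted limma-voom (0.21) and without Srgn+/+ 1 (range over left-out libraries -0.74 to 0.51). Adipoq turned positive without Srgn+/+ 1 (-0.198 to 0.0436). Lep, near 0, was 0.0499, 0.0499 and 0.0497 with limma-trend at pseudocounts 1, 0.5 and 5, 0.00449 by mean log2 CPM, 0.0536 without the 3 libraries richest in epididymis RNA and -0.220 to 0.0481 over left-out libraries; Nrg4 was -0.0774 without those 3 and -0.0451 to 0.45 over left-out libraries. The cause was not tested. Correlated pairs numbered 14 with genotype means removed, 3 without the 3 epididymis libraries and 4 to 12 over left-out libraries; relations with marker lists numbered 5 without those 3 and 7 to 15 over left-out libraries. Fewer libraries also leave fewer permutations. No paired analysis was possible because the labels give no replicate numbers shared between genotypes. Apln, at 17.9 to 55.2 CPM, rests on the fewest reads of the members.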
